A study of Sus scrofa with 18 samples.

Results

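The GIMAP genes (GTPases of immunity-associated proteins) were described in serum RNA of pigs during cardiogenic shock and mechanical unloading. The members were the rows of the raw count table whose gene symbol was GIMAP1, GIMAP2, GIMAP4, GIMAP5, GIMAP6, GIMAP7 or GIMAP8. Of these 7 names, 2 had a row, GIMAP2 and GIMAP8, among 31908 rows in all. The family was selected on the measured read counts of GIMAP8, which rose in shock and fell on support, so its values in these contrasts are a description and carry no test. A further 5 rows had no symbol and were identified as family genes by Ensembl or Entrez identifier or by the description in the table. They were GIMAP1, GIMAP4, GIMAP6, GIMAP7 and LOC100519177, the last of which the table describes as GTPase IMAP family member 1. These 5 were added after the table was opened, by identity and not by value. No row was matched to GIMAP5.

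Serum was drawn from the venous blood of 6 female Danish Landrace pigs, 5 months old, at 3 time points. Baseline was the basal state before shock. CS was cardiogenic shock, brought about in the anesthetized pig by injecting polyvinyl alcohol microspheres into the left main coronary artery. pVAD was support by an Impella CP percutaneous ventricular assist device, a catheter pump that moves blood out of the left ventricle, while shock persisted. The order of time points was the same in each pig, so intervention and elapsed time cannot be told apart. The microspheres close the vessels for good, unlike an infarct that is reopened. Each pig gave 1 library per time point. CS replicate 6 was set aside, which left 6 Baseline, 5 CS and 6 pVAD libraries.

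GIMAP proteins bind GTP through an AIG1 domain, which is related in fold to septins. They sit mainly on intracellular membranes and are known for their expression in lymphocytes. Loss of single members in mice or rats shortens the survival of T or B cells, and the genes lie next to each other as a cluster. In the RefSeq annotation of the Sscrofa11.1 assembly the pig cluster lies on chromosome 18, in the order GIMAP5, GIMAP1, GIMAP2, GIMAP6, GIMAP4, GIMAP7, LOC100519177 and, after further transcripts, GIMAP8. There the GIMAP4 and GIMAP7 models overlap, and an lncRNA gene, LOC110257569, overlaps GIMAP8. Neither the strand setting of the counting nor its treatment of reads that match several family members is given in the sources used here. Reads of such pairs, and of the paralogs GIMAP1 and LOC100519177, could therefore have been split or lost.

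Depth ranged from 18229243 to 71488943 reads per library in the 17 libraries. The 6 GIMAP rows with reads together held 767 to 4206 reads per library. GIMAP8 had 73 to 697 reads, GIMAP2 21 to 330, GIMAP1 215 to 1865, LOC100519177 124 to 935, GIMAP4 197 to 1071 and GIMAP6 38 to 300. GIMAP7 had 0 reads in every library, which allows up to 3 reads or 0.0496 to 0.198 CPM (CPM, read counts scaled to the TMM-adjusted size of each library, is the unit used below). This floor covers counting error only. CS replicate 4 stood apart, with 71.5% of its reads in 4 transcripts and a TMM factor of 0.307, the lowest of all. Log2 fold changes of GIMAP rows that rest on it are given with and without it.

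Lymphocyte markers had reads in this serum RNA, as most rows did. Each of the 17 libraries had reads in 22019 to 25830 of the 31908 rows. Among defining markers, CD3E, a T cell receptor subunit, had 252 to 8968 reads in the 17 libraries. CD3D, LCK and NKG7 had reads in all 17 libraries, the B cell gene MS4A1 in 16 and the NK cell gene NCR1 in 14. Serum is the supernatant of centrifuged blood, so these reads name no source cell. Fewer cells of a type and less RNA per cell cannot be told apart in such bulk samples.

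A transcript was called at an unadjusted edgeR p below 0.05 and a fold change above 1.5. In CS vs. Baseline, 2 of 6 tested GIMAP rows were called, both higher in CS: GIMAP8 and LOC100519177. Of all 26146 transcripts tested, 2.82% were called in either direction, 1.59% higher and 1.24% lower. In pVAD vs. CS, 2 of 6 were called, both lower on pVAD: GIMAP8 and GIMAP1. The share of all transcripts was 2.43%, with 1.11% higher and 1.32% lower. In pVAD vs. Baseline, 1 of 6 was called, GIMAP2, which was lower on pVAD, against 0.834% of all transcripts, 0.444% higher and 0.39% lower. GIMAP8 fixed 1 call in each of the first pair of comparisons by selection, so those counts are no result about the family. No GIMAP row passed Benjamini-Hochberg adjustment, and neither did any transcript: 0 of 26146 had an adjusted p below 0.05 in each comparison by edgeR, and 0 transcripts did by DESeq2. The counts at an unadjusted p below 0.05 were 808, 695 and 228 by edgeR and 1030, 908 and 264 by DESeq2, with CS vs. Baseline first and pVAD vs. Baseline last.

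GIMAP8, the longest family protein, carries several GTPase domains where the others carry a single one. In the 5 CS libraries GIMAP8 was at 16.8, 7.77, 8.56, 12.7 and 4.97 CPM, against a lowest, median and highest value of 4.10, 5.58 and 6.68 CPM in the 6 Baseline libraries. On pVAD its lowest, median and highest values were 3.595, 5.19 and 5.82 CPM. Thus 4 of 5 CS libraries lay above every Baseline and every pVAD library, and CS replicate 5 lay within both ranges. GIMAP8 averaged 5.45 ± 1.07 CPM at Baseline (SD, n = 6), 10.1 ± 4.61 CPM in CS (n = 5) and 5.02 ± 0.764 CPM on pVAD (n = 6). The fitted log2 fold change was 0.90 (SE 0.29) for CS vs. Baseline and -1.01 (SE 0.29) for pVAD vs. CS, the values for which the gene was picked. Within pigs GIMAP8 was higher in CS than at Baseline in 4 of 5 and lower on pVAD than in CS in 4 of 5. These comparisons share the CS libraries, so a high CS value moves both.

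**Figure D1:**
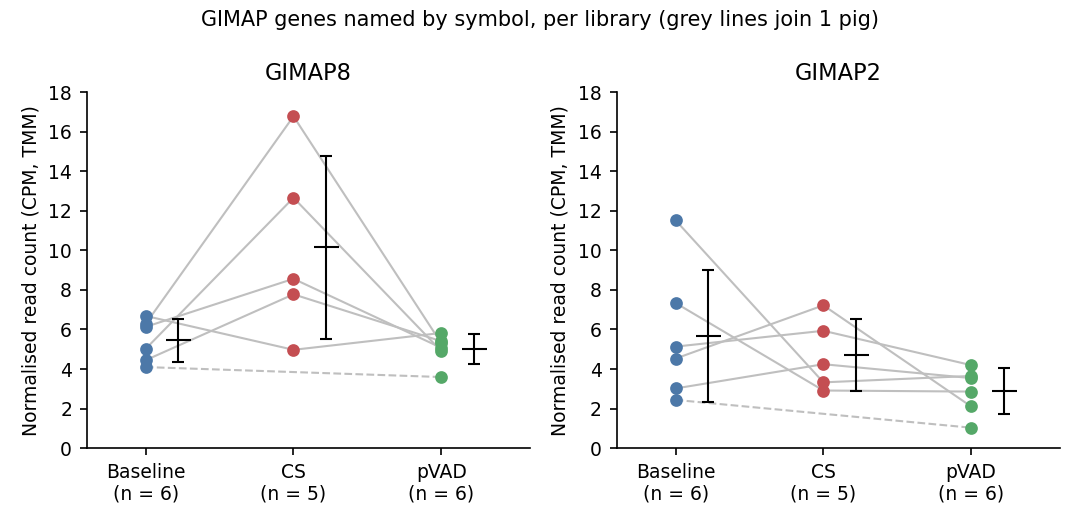
Normalised read counts (CPM after TMM scaling) of GIMAP8 and GIMAP2 in each of 17 libraries by time point. Points are libraries, grey lines join the libraries of 1 pig (dashed for the pig whose CS library was set aside), and black marks show the mean ± SD. GIMAP8 reached 16.8 and 12.7 CPM in CS replicates 1 and 4, and GIMAP2 was lowest on pVAD, with a mean of 2.90 CPM.

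For pVAD vs. Baseline, which is the sum of the contrasts that chose GIMAP8 and so is a description too, the log2 fold change was -0.11 (SE 0.28). Baseline replicates 1, 3 and 5 (6.29, 6.13 and 6.68 CPM) lay above every pVAD library, and pVAD replicate 6 (3.595 CPM) lay below every Baseline library. The ranges otherwise overlapped, and GIMAP8 was lower on pVAD in 5 of 6 pigs.

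The GIMAP8 difference changed with the scaling of the libraries. In the CS contrasts its log2 fold changes were 0.64 and -0.75 without CS replicate 1, and 0.81 and -0.92 without CS replicate 4. These contrasts chose the gene, so the values carry no test. Scaled by total reads alone, a setting chosen after seeing the data, GIMAP8 was at 3.89 RPM in CS replicate 4, below the lowest Baseline library at 3.96 RPM (RPM, reads over total reads, is on the CPM scale with no TMM factor). GIMAP8 was then higher in CS in 3 of 5 pigs. Its log2 fold change was 0.63 for CS vs. Baseline and -0.51 for pVAD vs. CS, and neither was called. That scaling also moved the median of all transcripts to -0.09 in CS vs. Baseline, 0.30 in pVAD vs. CS and 0.21 in pVAD vs. Baseline. Relative to this median GIMAP8 stood at 0.72 and -0.81 in the CS contrasts.

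A ratio within a library does not depend on the scaling. GIMAP8 made up 23.7, 16.4, 18.1, 6.61 and 11.9% of all GIMAP reads in CS replicates 1 to 5, against a lowest, median and highest share of 7.94, 10.7 and 15.8% at Baseline. On pVAD the lowest, median and highest shares were 5.97, 11.2 and 15.3%. The shares of 3 CS libraries exceeded every Baseline and pVAD share, while CS replicate 4 lay below every Baseline library. Within pigs the share was higher in CS than at Baseline in 4 of 5 and lower on pVAD than in CS in 4 of 5. The exception was the pig of replicate 4 each time. Since GIMAP8 was chosen for its rise, these shares are given without a test.

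**Figure D2:**
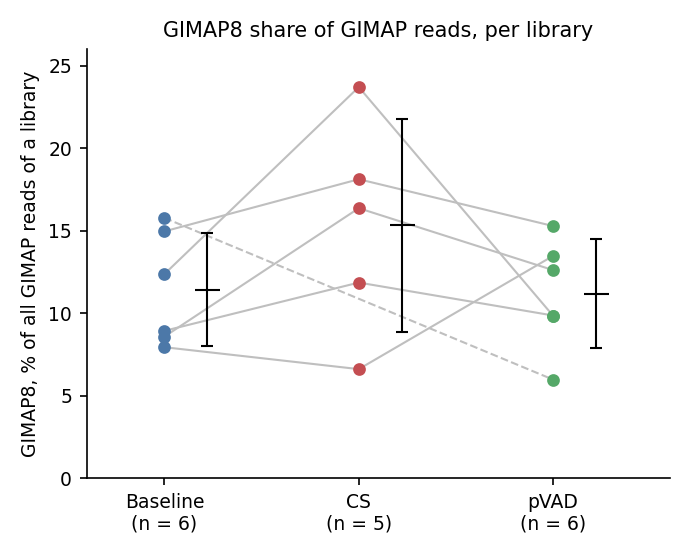
GIMAP8 reads as a percentage of the reads of all GIMAP rows in the same library, by time point. Points are libraries, grey lines join the libraries of 1 pig (dashed for the pig whose CS library was set aside), and black marks show the mean ± SD. CS replicates 1 to 3 lie at 23.7, 16.4 and 18.1%, above all Baseline and pVAD libraries, and CS replicate 4 lies at 6.61%.

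GIMAP2, which in human cells is found on lipid droplets, stayed within its Baseline range in CS. It was at 7.22, 5.93, 4.24, 2.91 and 3.33 CPM in CS, against a lowest, median and highest value of 2.44, 4.83 and 11.5 CPM at Baseline. All 5 CS values fell inside that range. The log2 fold change of CS vs. Baseline was -0.25 (SE 0.42, 95% interval -1.13 to 0.62, edgeR adjusted p = 1), with 3 of 5 pigs higher in CS. Without Baseline replicate 5 it turned to 0.07.

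On pVAD, GIMAP2 was at 2.11, 4.20, 3.54, 2.86, 3.65 and 1.03 CPM, a mean of 2.90 ± 1.16 CPM against 5.66 ± 3.35 CPM at Baseline (SD, n = 6 each). Of these libraries, 2 lay below the lowest Baseline value, and the ranges otherwise overlapped. The log2 fold change of pVAD vs. Baseline was -0.95 (SE 0.40, 95% interval -1.79 to -0.11), lower on pVAD in 5 of 6 pigs. This was past the call rule at an edgeR p of 0.0277, with an adjusted p of 1. The call was lost without Baseline replicate 4 (-0.87), Baseline replicate 5 (-0.63), pVAD replicate 1 (-0.88) or pVAD replicate 6 (-0.78). Scaled by total reads it was -0.57, lower on pVAD in 4 of 6 pigs. Against CS, GIMAP2 was lower on pVAD in 4 of 5 pigs, with a log2 fold change of -0.70 (SE 0.42, 95% interval -1.57 to 0.17) that was not called.

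GIMAP1 keeps mature lymphocytes alive in mice. It was at 17.95, 13.2, 12.9, 84.9 and 10.6 CPM in CS, against a lowest, median and highest value of 7.28, 15.5 and 24.4 CPM at Baseline. Its pVAD values had a lowest, median and highest of 8.37, 13.0 and 24.6 CPM. All CS libraries but replicate 4 lay inside the Baseline range, and the medians of the 3 time points were close. The log2 fold change was 0.88 (SE 0.46, 95% interval -0.08 to 1.84) for CS vs. Baseline. For pVAD vs. CS it was -0.97 (SE 0.46), just inside the call rule at an edgeR p of 0.0482 and an adjusted p of 0.999. Without CS replicate 4 these became -0.15 and 0.06, so both turned sign and the call was lost. With the pig as a replicate block the pVAD vs. CS value was -0.63 and not called, and it was not called under 14 of 27 alternatives with the sign kept.

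LOC100519177, the other row described as family member 1, ran close to GIMAP1. It was at 16.96, 7.18, 5.96, 42.6 and 7.36 CPM in CS, against a lowest, median and highest value of 4.20, 6.87 and 10.6 CPM at Baseline. CS replicates 1 and 4 lay above every Baseline library, and the other CS libraries lay inside the Baseline range. The log2 fold change of CS vs. Baseline was 1.20 (SE 0.44, 95% interval 0.30 to 2.10), called at an edgeR p of 0.0116 with an adjusted p of 1, with the row higher in CS in 2 of 5 pigs. Without CS replicate 4 it was 0.43 and not called. Scaled by total reads it was 0.60 and not called, with the row higher in CS in 4 of 5 pigs. For pVAD vs. CS the value was -0.90 (SE 0.43), just outside the rule at an edgeR p of 0.0503, and -0.13 without CS replicate 4. On pVAD the row had a lowest, median and highest value of 5.29, 6.90 and 16.4 CPM.

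GIMAP4 speeds the death of stimulated T cells in mice, and GIMAP6 takes part in autophagy in human and mouse cells. GIMAP4 was at 6.86, 11.5, 13.2, 38.2 and 12.4 CPM in CS, against a lowest, median and highest value of 6.67, 14.5 and 19.9 CPM at Baseline. GIMAP6 was at 4.98, 1.91, 2.33, 10.2 and 3.23 CPM in CS, against 1.29, 3.41 and 8.55 CPM at Baseline in the same order. CS replicate 4 was the highest library of both rows, and the remaining CS libraries did not leave the Baseline range. The log2 fold changes of CS vs. Baseline were 0.22 (SE 0.37) for GIMAP4 and 0.20 (SE 0.48) for GIMAP6, neither called. Without CS replicate 4 they were -0.35 and -0.34. For pVAD vs. CS they were -0.19 (SE 0.37) and -0.87 (SE 0.48), neither called, and 0.38 and -0.33 without that library.

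On pVAD, GIMAP4 averaged 14.4 ± 5.69 CPM and GIMAP6 2.48 ± 0.971 CPM, against 14.1 ± 4.93 and 3.94 ± 2.46 CPM at Baseline (SD, n = 6 each). The log2 fold change of pVAD vs. Baseline was 0.03 (95% interval -0.70 to 0.76) for GIMAP4 and -0.68 (95% interval -1.63 to 0.27) for GIMAP6. For GIMAP1 it was -0.09 (95% interval -1.01 to 0.83) and for LOC100519177 0.30 (95% interval -0.56 to 1.16). None of these 4 rows was called in that comparison, and the intervals include changes of more than 1.5-fold in at least 1 direction.

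**Figure D3:**
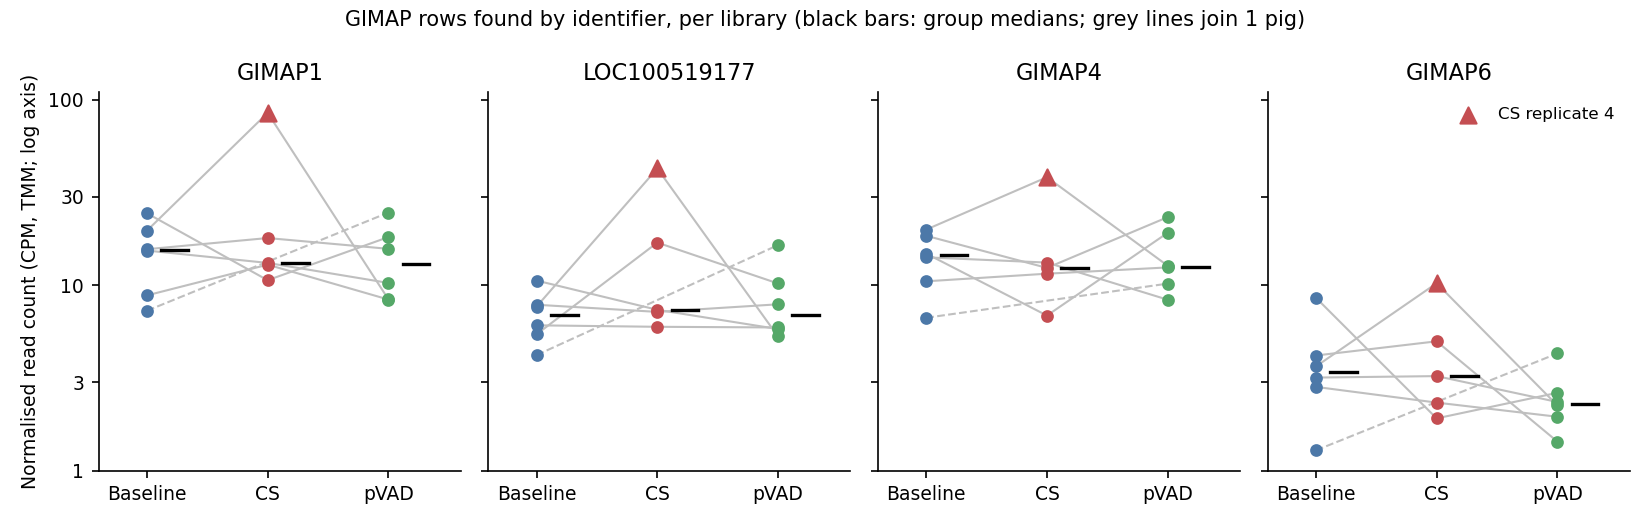
Normalised read counts (CPM after TMM scaling, log axis) of the 4 GIMAP rows with reads that were found by identifier, in 17 libraries by time point. Points are libraries, the triangle is CS replicate 4, grey lines join the libraries of 1 pig (dashed without a CS library) and black bars are group medians. CS replicate 4 is the highest CS library in every panel, at 84.9 CPM for GIMAP1 and 42.6 CPM for LOC100519177.

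Over the 6 tested rows the median log2 fold change was 0.55 in CS vs. Baseline, -0.88 in pVAD vs. CS and -0.10 in pVAD vs. Baseline. The median of all transcripts was at most 0.02 in each. These medians include GIMAP8, chosen for its direction, and over the other 5 rows they were 0.22, -0.87 and -0.09 in the same order. With CS replicate 4 left out, the medians of the 6 rows were -0.14 in CS vs. Baseline and -0.23 in pVAD vs. CS, and those of the 5 rows were -0.15 and -0.13. GIMAP8 and LOC100519177 were then the only rows of the 6 above 0 in CS vs. Baseline, against 5 with that library. GIMAP1 and GIMAP4 were then above 0 in pVAD vs. CS, against none with it.

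**Figure D4:**
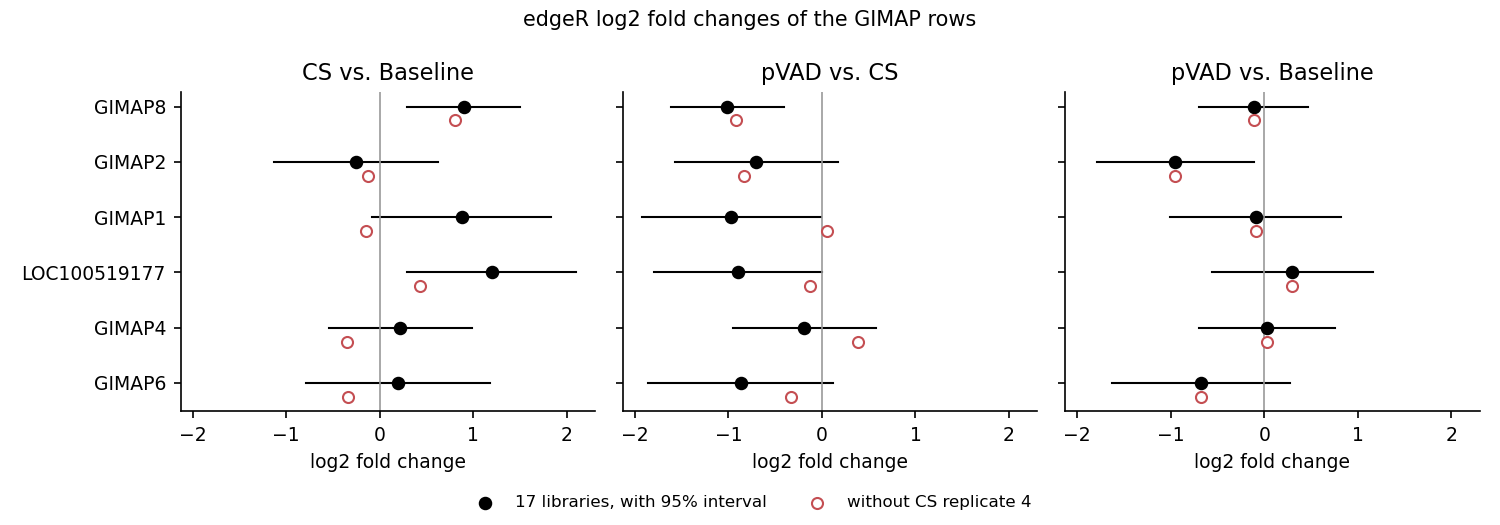
Fitted edgeR log2 fold changes of 6 GIMAP rows in the 3 comparisons. Black points and bars are the values and 95% intervals from 17 libraries, and open red circles are the values without CS replicate 4. Leaving out that library moved GIMAP1 in CS vs. Baseline to -0.15 and left GIMAP8 at 0.81.

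On the TMM scale the summed T cell markers of CS replicate 4 were high, as were its GIMAP1, LOC100519177, GIMAP4 and GIMAP6 values. Summed over the T cell list (15 of 17 rows tested, 2 at 0), the markers had 237.4 to 839.5 CPM in CS, against 225.1 to 321.9 CPM at Baseline. The pVAD range was 232.0 to 358.1 CPM. The highest CS sum was replicate 4 and the next was replicate 1 with 332.7 CPM. CD3E, the most abundant T cell marker, was at 408.2 CPM in CS replicate 4, against at most 134.2 CPM in any other library. CD3D was at 50.7 CPM there, against at most 9.21 CPM elsewhere. The list was not uniform: in CS vs. Baseline 10 of its 15 tested rows were positive and 5 negative. CD8A averaged 8.51 ± 1.13 CPM in CS against 13.0 ± 3.74 CPM at Baseline (SD), and LCK 10.4 ± 4.15 against 12.6 ± 2.58 CPM. Scaled by total reads alone, the T cell sum of CS replicate 4 was 258.0 RPM. It lay within the ranges of CS (239.8 to 364.8 RPM), Baseline (234.4 to 329.7 RPM) and pVAD (162.5 to 442.2 RPM). On that scale GIMAP1 was at 26.1 RPM in that library, its highest value in any library. LOC100519177, GIMAP4, GIMAP6 and GIMAP8 were at 13.1, 11.7, 3.15 and 3.89 RPM there and were not at their highest, and GIMAP2, at 0.895 RPM, was at its lowest in CS. The part of T cell RNA or of the low TMM factor in the GIMAP values of this library was not tested.

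Across the 17 libraries the log2 CPM of LOC100519177 and GIMAP1 went with the summed T cell markers (Pearson r = 0.90 and 0.88), and GIMAP6 and GIMAP4 less so (0.71 and 0.53). Without CS replicate 4 these were 0.77, 0.66, 0.56 and -0.01. GIMAP8 had r = 0.46 with the T cell sum, and 0.10 without that library. GIMAP2 had -0.13 and -0.03. The coefficients without CS replicate 4 still hold pVAD replicate 6, which had the next lowest TMM factor (0.454). Its T cell sum of 358.1 CPM was the highest left, but by total reads it was 162.5 RPM, the lowest of the 17 libraries. GIMAP1 and LOC100519177 had their highest pVAD values there, 24.6 and 16.4 CPM. The part of the scaling in these coefficients was not tested. The libraries share pigs, a scaling factor and time points, so these coefficients are descriptions. Within the family GIMAP1 and LOC100519177 had the highest r, 0.87 (0.70 without CS replicate 4). GIMAP8 had 0.54 with LOC100519177 (0.31), 0.47 with GIMAP1 (0.18), 0.44 with GIMAP2 (0.57) and 0.20 with GIMAP4 (-0.13).

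**Figure D5:**
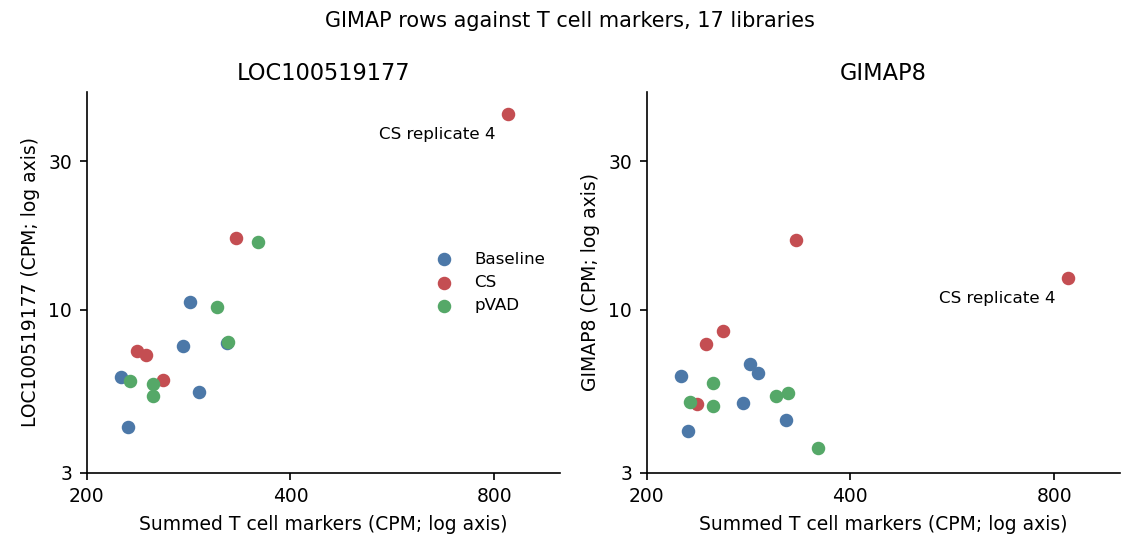
LOC100519177 (left) and GIMAP8 (right) against the sum of T cell markers in 17 libraries, all in CPM on log axes and coloured by time point. LOC100519177 climbs with the marker sum, with CS replicate 4 at 839.5 and 42.6 CPM, whereas GIMAP8 reaches 16.8 CPM at a sum of 332.7 CPM and is lowest, at 3.595 CPM, at the highest pVAD sum of 358.1 CPM.

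The genes whose log2 CPM was most like GIMAP8 over 17 libraries, among 13699 named genes with at least 10 reads per library on average, were not lymphocyte markers. They were MREG (r = 0.92), MAP3K3 (0.91), TSHZ1 (0.88), ZIC5 (0.86) and SSC4D (0.85). MREG encodes melanoregulin, MAP3K3 a kinase of MAP kinase cascades, and TSHZ1 and ZIC5 zinc finger proteins. MREG averaged 24.5 ± 4.01 CPM at Baseline (SD, n = 6), 31.7 ± 7.99 CPM in CS (n = 5) and 22.7 ± 3.66 CPM on pVAD (n = 6). In CS replicate 1 GIMAP8 and all 5 were high, and r without it was 0.73 for ZIC5 up to 0.87 for MAP3K3. For these genes r without CS replicate 4 was not computed.

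Of 37 tested rows on the T, B and NK cell lists together (4 more were at 0), 2 were called higher and 1 lower in CS vs. Baseline, or 8.11% against 2.82% of all transcripts. The pVAD vs. CS count was 1, or 2.70% against 2.43%, and that of pVAD vs. Baseline was 0. When CS replicate 4 was left out, 1 row was called in CS vs. Baseline and 0 were called in pVAD vs. CS. The summed level of these lists was 515.9 to 1181 CPM in CS, against 514.7 to 648.9 CPM at Baseline, and 509.3 to 647.7 CPM on pVAD. CD3D, a T cell receptor subunit, rose in CS by a log2 fold change of 1.74 (SE 0.60) and was lower on pVAD than in CS by the call rule (-1.42). CD8A, the coreceptor of cytotoxic T cells, fell by 0.61, and 1 of 2 rows of GZMA, a granzyme, had 1.45. Without CS replicate 4 the value of CD3D was 0.19 for CS vs. Baseline and 0.14 for pVAD vs. CS, that of GZMA 0.99 and that of CD8A -0.58, and none was called. With the pig as a replicate block, GZMA in CS (1.21) and CD3D in pVAD vs. CS (-0.89) were not called either. No B cell row of 10 was called in any comparison of the 17 libraries, but without CS replicate 4 there was 1 in CS vs. Baseline. PAX5 and CD244 were the most abundant members of the B and NK cell lists. Every called marker named here had an edgeR adjusted p of 1 or 0.999.

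The lists of other cell types held 1 call or none per comparison, too few to set against the 2.82, 2.43 and 0.834% of all transcripts called. Of 14 myeloid rows, led by ITGAM, SPI1 was higher in CS (log2 fold change 0.69). Of 10 platelet rows, led by ITGA2B, GP6 was higher on pVAD than in CS (0.66), and GP9 was lower on pVAD than at Baseline (-1.29). Of 9 red cell rows, led by HBB, 0 were called. Of 12 endothelial rows, led by VWF, KDR, a VEGF receptor, was lower in CS (-0.62). Leaving out 1 library ended each of these calls: SPI1 had 0.40 and KDR -0.49 without CS replicate 1, GP6 had 0.59 without CS replicate 2, and GP9 had -0.94 without Baseline replicate 2. With the pig as a replicate block SPI1 (0.50), KDR (-0.57) and GP9 (-1.34) were not called. The summed myeloid markers were at 147.8 to 295.0 CPM in CS, against 92.2 to 216.7 CPM at Baseline and with the highest value in CS replicate 1, the library with the most GIMAP8. Its part in the GIMAP8 value was not tested.

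Lists of genes tied to GIMAP function were likewise too short to read a call or none against these shares. Of 13 genes of the BCL2 family, some of whose members bind GIMAP proteins in mouse T cells, 0 were called in CS vs. Baseline, and the survival gene BCL2L2 was lower on pVAD than in CS (-0.82). That call was lost with the pig as a replicate block (-0.70) and without CS replicate 4 (-0.40). Of 13 autophagy genes, 4 other immune GTPases and 13 septins, 0 were called in any comparison. Among 15 genes of lymphocyte homeostasis the homing receptor CCR7 was higher in CS (1.05, but 0.15 and not called without CS replicate 4). In this last list 13 of 15 were positive in CS vs. Baseline (median 0.23), 12 were negative in pVAD vs. CS (median -0.18) and 13 were positive in pVAD vs. Baseline (median 0.15). Leaving out CS replicate 4, whose list sum of 486.9 CPM was the highest in CS against 294.8 CPM in replicate 1, gave a median of 0.08 in CS vs. Baseline with 10 positive, and 0.01 in pVAD vs. CS with 6 negative.

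Around the cluster, 35 genes outside the family that matched a row lay within 500 kb in the Sscrofa11.1 annotation, of which 31 were tested. CLCN1 and CASP2 matched the same row, which was counted for each. In CS vs. Baseline 0 of the 31 were called, against 2.82% of all transcripts. In pVAD vs. CS 2 were called lower, or 6.45% against 1.32%, and so few calls are no result about the window. They were ABCB8, an ABC transporter, and LOC110257586. ABCB8 was at 0.0244 CPM on pVAD, against 0.544 CPM in CS, so its log2 fold change of -4.21 rests on few reads, and LOC110257586 had -2.19, but -0.58 and no call without CS replicate 1. The median log2 fold change of the 31 genes was 0.18 in CS vs. Baseline, -0.25 in pVAD vs. CS and -0.06 in pVAD vs. Baseline. Without CS replicate 4 it was 0.15 in CS vs. Baseline and -0.12 in pVAD vs. CS.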

How the data were processed

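RNA from serum was sequenced by the authors at 3 time points in 6 pigs. According to the submitters' processing notes and the study's methods, reads were trimmed with Trim Galore 0.4.4, aligned with STAR 2.4.2a and summed over Ensembl genes by featureCounts under R 3.6.0. The genome build is not given in the sources used here. The authors deposited these counts without normalization, beside a sample sheet that names the pig behind each library.

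From these counts, genes with at least 5 reads in total over 17 libraries were tested in R 4.3.3 with edgeR 4.0.16 (TMM, quasi-likelihood test, 1 fit, time point as sole term). All p-values are two-sided. A call needed a fold change above 1.5 at an unadjusted p below 0.05, and Benjamini-Hochberg adjustment ran over all 26146 transcripts. CPM on the log2 scale took a prior count of 2. 

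Same-numbered libraries come from the same pig according to the sample sheet. Deviations from the group means had a median correlation of 0.14 between libraries of the same pig (16 pairs) and -0.02 between different pigs (80 pairs). The study also excluded CS replicate 6. The pig entered an alternative fit as a replicate block. In the main design p-values treat the libraries as independent. Other alternatives were RLE size factors, DESeq2 1.42.0, other filters and thresholds, all 18 libraries, 2 time points only, ribosomal and mitochondrial rows removed, the 2 libraries of lowest TMM factor removed, each library left out and, chosen after seeing the data, library totals without TMM.

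The GIMAP genes, the 12 gene lists and the rule for named genes (every family row, called list members up to 4 per list, direction and comparison, the most abundant member of each cell type list and the 5 genes most like GIMAP8) were chosen with earlier results of these data known. Family rows without a symbol were identified through the table's identifiers and descriptions and the RefSeq gene table of Sscrofa11.1, used for names and neighbours. In simulated counts for 26073 genes, 87% of 4-fold and 60% of 2-fold changes were recovered in CS vs. Baseline, and 85% and 64% in pVAD vs. CS. The changed genes had at least 10 reads per library on average, and recovery meant the unadjusted call rule in the right direction. Counts were drawn independently for each library with no pig effect, so the rates do not cover genes with fewer reads or shared pig effects. Gene lengths were not used, so levels of different genes are not compared. 1 listed marker is not reported here.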

Additional observations from a re-analysis of the deposited data

Results flagged for a closer look

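In CS replicate 4, GIMAP1 had 84.9 CPM, with the next CS library at 17.95 CPM, and GIMAP4 had 38.2 CPM, with the next at 13.2 CPM. Both stood far from the other libraries of their group. These were 2 of 18 sets of libraries examined. Chance marks about 1 in 20 of independent sets, but both values come from CS replicate 4 and share its TMM factor. The same library had the lowest TMM factor (0.307) and the highest CD3E on the TMM scale (408.2 CPM), and the part of either in the GIMAP values was not tested.

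CS replicate 6, not used in any comparison, held 2484066 reads and 2891 genes with reads, against at least 18229243 reads and 22019 genes in each other library. GIMAP8 had 2023 reads there, or 814.4 RPM (reads over total reads, on the CPM scale with no TMM factor), 58.0-fold over the highest of the other libraries (14.0 RPM). The highest Baseline value was 8.98 RPM. GIMAP4 had 254 reads, or 102.3 RPM, against 20.9 RPM in the highest Baseline library. The other 4 GIMAP rows with reads elsewhere had 0 reads in this library, so GIMAP8 made up 88.8% of its GIMAP reads. With all 18 libraries in the fit the log2 fold change of GIMAP8 was 4.85 for CS vs. Baseline and -4.97 for pVAD vs. CS. These values rest on the library set aside and on contrasts that chose the gene, so they carry no test.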

How the results depend on the processing

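Calls of GIMAP rows were few, so 1 gene changes a count. For the genes with a symbol, the count of 1 in CS vs. Baseline and in pVAD vs. CS was GIMAP8 alone, fixed by its selection. The count became 0 with library totals without TMM and with an adjusted p below 0.05. It was 1 whichever library was left out, which is no result about a gene chosen this way. In pVAD vs. Baseline it was 1, ranging from 0 to 1 when each library was left out, and 0 with all 18 libraries, without the 2 libraries of lowest TMM factor, with library totals, at p below 0.01 and at an adjusted p below 0.05. The counts over all tested family rows in that comparison were the same. In CS vs. Baseline the family count of 2 ranged from 1 to 3 when each library was left out, and was 2 with all 18 libraries (GIMAP4 gained, LOC100519177 lost), 1 without the 2 libraries of lowest TMM factor and at p below 0.01, and 0 with library totals and at an adjusted p below 0.05. In pVAD vs. CS the family count of 2 ranged from 1 to 4 when each library was left out. It was 3 with DESeq2 (LOC100519177 gained), 2 with all 18 libraries (GIMAP4 gained, GIMAP1 lost), 1 with RLE size factors, filterByExpr, 2 time points only, without the 2 libraries of lowest TMM factor and at p below 0.01, and 0 with library totals and at an adjusted p below 0.05. With the pig as a replicate block it was 1, as GIMAP1 was lost, and the block changed no other GIMAP call: GIMAP8 had 0.76 and -0.87 in the CS contrasts and GIMAP2 -0.94 in pVAD vs. Baseline. The cause of these changes was not tested.

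Signs of uncalled values turned as follows. In CS vs. Baseline, without the 2 libraries of lowest TMM factor GIMAP1, GIMAP4 and GIMAP6 were -0.15, -0.35 and -0.34. With library totals GIMAP4 and GIMAP6 were -0.20 and -0.24, and with all 18 libraries GIMAP6 was -0.0152. In pVAD vs. CS, GIMAP4 was 0.0847 with the replicate block, 0.46 without the 2 libraries of lowest TMM factor and 0.43 with library totals. In pVAD vs. Baseline, GIMAP8 was 0.13 with library totals. With each library left out, GIMAP2 in CS vs. Baseline ranged from -0.45 to 0.0745, GIMAP1 from -0.15 to 1.08, GIMAP4 from -0.35 to 0.42 and GIMAP6 from -0.34 to 0.58. In pVAD vs. CS GIMAP1 ranged from -1.19 to 0.0581 and GIMAP4 from -0.39 to 0.38. In pVAD vs. Baseline GIMAP1 ranged from -0.32 to 0.0908 and GIMAP4 from -0.16 to 0.15. Counts were lowest for GIMAP7, at 0 reads, and in the lowest library of GIMAP2, at 21 reads. Why GIMAP7 had no reads was not tested. GIMAP8 was chosen by the CS contrasts, so its adjusted p is not read. No other GIMAP row reached an adjusted p below 0.05 in any alternative.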
